A study of Mus musculus with 3 samples.

Results

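The vascular endothelium of the mouse ovary was described from 428 of 14353 single cells, chosen as every cell to which the authors' deposited annotation gives the name for vascular endothelial cells. The cells came from C57BL/6 females in 3 conditions. The metformin condition was aged mice given 350 mg/kg/day of metformin, a glucose-lowering drug, by mouth with the drinking water, begun at 14 months of age and kept up over 6 months. The aged condition was untreated, and its age is not stated for its cells. The young condition was untreated mice of 3 months. Ovaries of 3 mice per condition (of 5 mice in a group) were dissociated together as 1 suspension, filtered and sorted with a gate that is not given. Cells of all conditions carried sample tags and were run in 3 shared pools, A, B and C, with a kit that counts the 3′ ends of transcripts as unique molecular identifiers (UMIs). How each suspension was split between pools is not stated. Pools are taken as repeats of the library step, so each condition is 1 sample. No difference could be tested, and every interval is a 95% interval for counting error only.

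The class held 83 metformin cells, 69 aged cells and 276 young cells, with 316847, 244346 and 1572980 UMIs in total in the metformin, aged and young conditions. The median depth was 2975 UMIs per cell in metformin, 2725 in aged and 4933 in young cells, so values of the first 2 conditions carry the wider intervals. Of the cells in all classes, 52 had a barcode that occurs in more than 1 pool, and 0 of these were vascular endothelial. UMIs of the class were summed per condition and scaled to that sum (CPM, the usual scaling of counts to a common library total). A log2 ratio is the log2 of one condition's CPM over that of another.

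Endothelial cells line all blood vessels. They pass nutrients and hormones between blood and tissue, present adhesion molecules to leukocytes, and lay down the vessel's basement membrane together with pericytes. In the ovary new capillaries form in each cycle around growing follicles and in the corpus luteum, under vascular endothelial growth factor (VEGF), and regress again. Vessels differ along their length: arterial cells rely on Notch signalling, and the capillaries of many endocrine organs have pores closed by diaphragms built from Plvap.

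The class matched its label. Flt1, the VEGF receptor 1, was found in 77.1% of metformin, 79.7% of aged and 76.8% of young cells of the class. Among T cells, which should lack it, a Flt1 UMI was found in 0 of 940 metformin cells, which allows a share of up to 0.319% by the limit of 3 cells of the total, in 1 of 421 aged cells (0.238%) and in 0 of 314 young cells, which allows up to 0.955% by the same limit. The exact Clopper-Pearson upper limits of these shares are 0.392% in metformin and 1.17% in young T cells. T cells had median depths of 1895.5, 1892 and 2575 UMIs in the metformin, aged and young conditions. Emcn, a sialomucin of capillary and venous endothelium, was found in 83.1% of metformin, 88.4% of aged and 82.6% of young cells. Cdh5, the cadherin of endothelial junctions, was found in 77.1%, 88.4% and 91.3% of metformin, aged and young cells, and Ptprb, a phosphatase that acts on the receptor Tek, in 81.9%, 78.3% and 78.6%. Of 7 lymphatic markers, 3, 2 and 4 were detected in metformin, aged and young cells, with a summed level of 104, 106 and 64.2 CPM. Prox1 was detected in every condition, Pdpn in metformin and young cells and Ccl21a in young cells. Lyve1, Mmrn1 and Reln were at 0 UMIs in every condition. Flt4, a VEGF receptor that is also in this list, made up 85.2 CPM of the metformin, 98.2 CPM of the aged and 51.5 CPM of the young sum. The genes that most set the class apart from all other cells, given as a description since any gene may have entered the naming, were led by Tmem252 (278 CPM in the class and 0.194 CPM in other cells), Fam167b, Ly6c1, Igfbp3 and the arterial transcription factor Sox17.

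The region upstream of the transcription start is shown for Flt1 and Emcn, as markers of the class for which RefSeq (build GRCm38.p6) gives a promoter window. Capitals mark matches to AGGAAG, a core motif of the ETS transcription factors that are active in endothelium, and to its reverse complement CTTCCT. Each sequence runs 5′ to 3′ on the gene's own strand and ends before the first annotated exon. The Flt1 sequence is chr5:147726012-147726261 on the minus strand and the Emcn sequence chr3:137340828-137341066 on the plus strand.
Flt1: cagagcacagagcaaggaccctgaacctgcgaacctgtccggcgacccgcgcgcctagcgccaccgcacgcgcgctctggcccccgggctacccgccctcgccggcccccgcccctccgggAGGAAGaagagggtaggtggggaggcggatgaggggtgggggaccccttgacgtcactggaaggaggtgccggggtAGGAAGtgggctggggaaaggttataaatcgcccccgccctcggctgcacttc
Emcn: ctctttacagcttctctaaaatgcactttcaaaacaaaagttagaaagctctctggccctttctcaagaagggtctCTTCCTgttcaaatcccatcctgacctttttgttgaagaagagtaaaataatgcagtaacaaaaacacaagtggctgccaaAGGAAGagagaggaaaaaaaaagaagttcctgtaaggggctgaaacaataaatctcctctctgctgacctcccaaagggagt
Both sequences hold 2 matches. Of the 18 genes made up of the 15 that most set the class apart and the named markers, 13 had a window, and 9 of these (69.2%) held a match within the 250 bases before the start, against 32.3% of all 27025 genes with a window. A match is a description and no evidence of binding. In GRCm38 the gene Flt1 lies on chromosome 5 from 147561604 to 147726011, Emcn on chromosome 3 from 137341067 to 137432185, Cdh5 on chromosome 8 from 104101625 to 104144511 and Ptprb on chromosome 10 from 116275523 to 116389535, and all 4 are protein-coding.

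Vascular endothelium made up 2.21% of metformin cells (interval 1.76 to 2.73), 2.32% of aged cells (1.81 to 2.92) and 3.62% of young cells (3.21 to 4.07). Over pools A, B and C the metformin share was 2.37%, 2.03% and 2.20%, the aged share 1.39%, 3.09% and 2.83%, and the young share 3.57%, 4.08% and 3.24%. The ratio of the metformin to the aged share was 0.955 (0.685 to 1.33), with values of 1.71, 0.660 and 0.777 over pools A, B and C and intervals that include 1 in each. Over non-immune cells alone the same ratio was 1.26 (0.904 to 1.76), and in pool A 2.39 (1.28 to 4.61). The ratio of the aged to the young share was 0.639 (0.484 to 0.835), and 0.812 without pool A. Shares also depend on how many other cells passed the strainer and the gate.

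**Figure D1:**
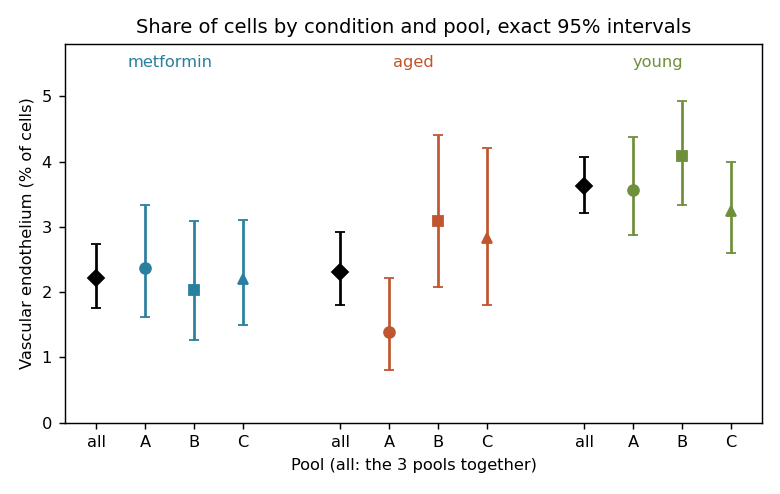
Share of vascular endothelium among all cells (y axis, percent) by condition and pool (x axis), with exact Clopper-Pearson 95% intervals for counting error; diamonds are all pools together. The aged value of pool A, 1.39%, lies below the other aged values of 3.09% and 2.83%.

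The first comparison, of aged with young endothelium, addresses how these cells differ with age. Aged cells had far more RNA of Plvap, the protein of endothelial diaphragms, and of Fabp4, a fatty acid binding protein of capillaries, and less of cell division genes and of the metal transporter Slc39a8. The aged and young cells together held 20 or more UMIs of 8042 genes. Of these, 786 (9.77%) were at least 2-fold higher and 437 (5.43%) at least 2-fold lower in aged cells, with 1 UMI added to each count, and the median log2 ratio was 0.16. List counts and medians below cover the members that reached this minimum. With median-of-ratios scaling, which moves every aged-over-young log2 ratio by -0.16, the counts were 535 higher and 577 lower. Because the aged sum is shallower than the young one, adding 1 UMI pulls low genes towards higher aged values.

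Plvap was at 1364, 953 and 1408 CPM in aged pools A, B and C, and at 72.0, 111 and 54.5 CPM in young pools A, B and C. The ranges do not overlap, and the log2 ratio over all pools was 3.82 (3.52 to 4.12), or 2.99 with cells thinned to 1000 UMIs. Fabp4 was at 2801, 962 and 1873 CPM in the aged pools and at 11.7, 119 and 10.4 CPM in the young pools, again without overlap. Its log2 ratio was 4.87 (4.53 to 5.21). One young cell held 48% of the young Fabp4 UMIs, without pool B the ratio was 7.67, without pool A it was 4.07, and without the richest cell it was 5.8. Plvap lies on chromosome 8 from 71497765 to 71511752, and Fabp4 on chromosome 3 from 10204088 to 10208576.

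Further genes named by a fixed ranking were higher in aged cells. Cyp26b1, an enzyme that degrades retinoic acid, had 266 CPM in aged against 8.26 CPM in young cells (log2 ratio 5.01, 4.14 to 5.99). Rsad2, an antiviral enzyme of the interferon response, was at 704 against 67.4 CPM (3.38, 3.03 to 3.75), and the homeobox gene Meis2 at 634 against 64.8 CPM (3.29, 2.92 to 3.67). Both were high in every aged pool, with Rsad2 between 602 and 880 CPM and Meis2 between 521 and 772 CPM. Ehd3, which acts in endosome recycling, stood at 4.34 (3.44 to 5.32), the receptor phosphatase Ptpru at 4.89 (3.46 to 6.64), the muscarinic receptor Chrm3 at 4.49 (3.14 to 6.09), the fatty acid hydroxylase Cyp4b1 at 3.95 (2.83 to 5.18) and Btnl9 at 3.39 (2.72 to 4.07). Without pool B, Ptpru stood at 6.93, Ehd3 at 5.34, Cyp26b1 at 5.64, Btnl9 at 4.49, Plvap at 4.43 and Rsad2 at 4.04, and without pool A Ptpru stood at 4.30. Cyp4b1 stood at 5.31 without candidate mixed droplets, which hold marker RNA of other cell types. With thinned cells Ptpru stood at 3.24, Cyp4b1 at 2.61, Btnl9 at 4.41, Ehd3 at 3.61 and Cyp26b1 at 4.16.

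The named genes Igfbp5 and Hapln1 were less evenly spread over cells. Igfbp5, a secreted binding protein of insulin-like growth factors, was at 898, 908 and 2273 CPM in the aged pools and at 81.8, 138 and 98.6 CPM in the young pools. Its log2 ratio was 3.61 (3.33 to 3.88), with 15 of 69 aged cells holding a UMI of it, and stood at 2.99 without pool C, 4.25 without pool B and 2.90 with thinned cells. Hapln1, which links hyaluronan to proteoglycans, had 41 aged UMIs, of which 51% were in 1 cell, and a log2 ratio of 5.24 (4.07 to 6.64). The ratio of Hapln1 was 4.25 without the richest cell and 4.02 with thinned cells. Igfbp5 is also a gene of the stromal fibroblast marker list, whose summed level in the class was 609 CPM in metformin, 1666 CPM in aged and 229 CPM in young cells, with Col1a1 at 0 in metformin and Mfap4 at 0 in aged cells. The part of other cells' RNA in these values was not tested.

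**Figure D2:**
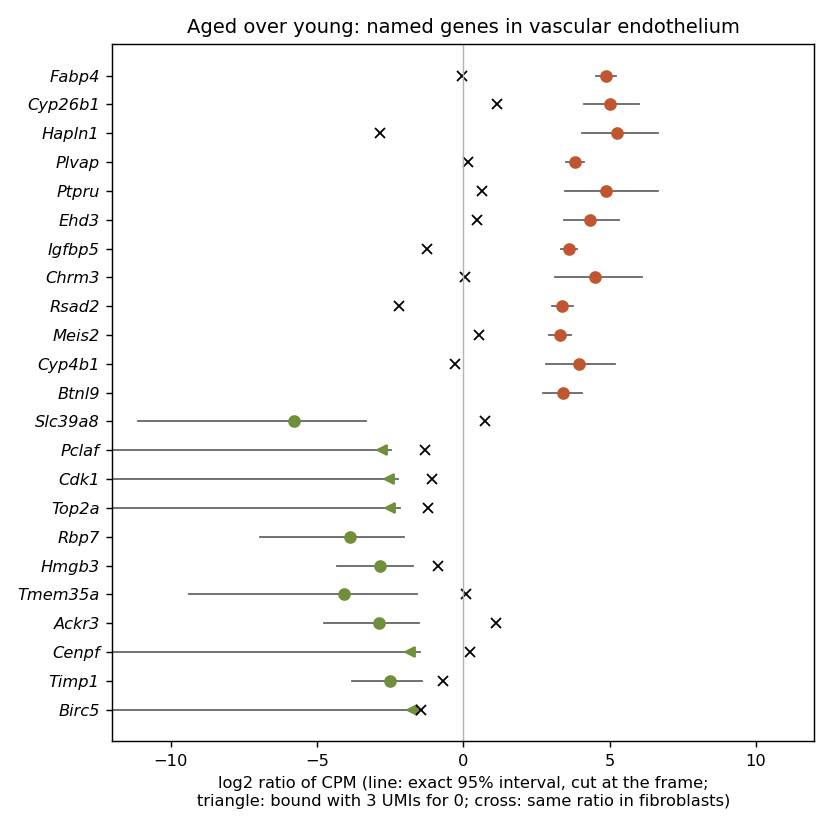
The log2 CPM ratio of aged over young vascular endothelium (x axis) for the 23 named genes (y axis), with exact 95% intervals; triangles are bounds with 3 UMIs standing for 0 aged UMIs, and crosses are the same ratio in fibroblasts. Higher genes run from 3.29 for Meis2 to 5.24 for Hapln1, and crosses of Igfbp5, Rsad2 and Hapln1 lie on the other side of 0.

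Over the whole class, the group of genes that marks capillaries was higher with age. So were 7 of the 9 venous marker genes with 20 UMIs (median 1.05), with 5 at least 2-fold higher and 2 lower. Of 10 capillary marker genes 7 reached 20 UMIs, of which 5 were at least 2-fold higher in aged cells and 0 lower, with a median of 1.53. Gpihbp1, which carries lipoprotein lipase to the capillary lumen, had 659 CPM in aged against 118 CPM in young cells (2.48, 2.16 to 2.79). Rgcc stood at 1.53 (1.27 to 1.78) and the kinase gene Sgk1 at 1.42 (1.17 to 1.67). Of 12 genes of fatty acid uptake 8 reached 20 UMIs, of which 4 were at least 2-fold higher and 1 lower, with a median of 1.18, or 2.16 without pool B.

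VEGF receptors were also higher in aged cells. Flt1 was at 1203, 1196 and 1408 CPM in the aged pools and at 500, 595 and 454 CPM in the young pools (log2 ratio 1.26, 1.06 to 1.45). Kdr, the main signalling receptor, was at 925 against 542 CPM (0.77, 0.55 to 0.99), and the co-receptor Nrp2 stood at 1.33 (0.95 to 1.70). All 5 members of the list were above 0 (median 0.97), as were 4880 of all 8042 genes, and 2 of the 5 were past 2-fold. The angiopoietin receptor Tek stood at 0.88 (0.45 to 1.29) and its partner Tie1 at 0.82 (0.38 to 1.23), and the 4 of 6 members of that system that reached 20 UMIs had a median of 0.77 with 0 past 2-fold.

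Several genes that respond to blood flow and to bone morphogenetic proteins (BMP) were higher as well. Klf2, the transcription factor induced by shear stress, was at 3034, 2464 and 3035 CPM in the aged pools and at 1752, 1798 and 1565 CPM in the young pools (0.68, 0.56 to 0.81). Klf4, its close relative, stood at 1.04 (0.78 to 1.30) and the lipid phosphatase Plpp3 at 1.37 (1.18 to 1.56). Of 9 flow-responsive genes 8 reached 20 UMIs, of which 3 were at least 2-fold higher and 0 lower (median 0.77). The BMP target Id1 stood at 1.17 (0.98 to 1.36), and of 16 genes of BMP and TGF-beta signalling 13 reached 20 UMIs, of which 6 were at least 2-fold higher and 0 lower (median 0.64). Genes of dissociation stress were higher in the same cells, with a median of 0.65 over 19 members, 3 of them past 2-fold higher and 1 past 2-fold lower. Of these, Fos stood at 0.69 (0.59 to 0.78), and Jun had a log2 ratio of 0.85 (0.72 to 0.97). Klf2 and Klf4 are themselves immediate early genes, and the part of dissociation in these values was not tested.

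Cell division genes were near 0 in aged endothelium. Pclaf, which binds the replication clamp, had 0 UMIs in aged against 134 in young cells, so it was at least 6.94-fold lower when 3 UMIs stand for 0. Cdk1, the mitotic kinase, had 0 against 113 UMIs (at least 5.85-fold lower) and the topoisomerase Top2a 0 against 109 UMIs (at least 5.64-fold lower). Cenpf and Birc5, of kinetochore and cytokinesis, had 0 against 68 and 0 against 65 UMIs. On the log2 scale the bounds without pool B were -1.68 for Pclaf, -1.57 for Cdk1, -1.39 for Top2a, -0.57 for Cenpf and -0.87 for Birc5, and with thinned cells -0.48 for Cdk1 and -0.09 for Top2a. Without pool C they were -1.96 for Cdk1 and -1.91 for Top2a, and without candidate mixed droplets -1.87 for Pclaf, -1.52 for Top2a and -1.03 for Birc5. Of 18 cell cycle genes 17 reached 20 UMIs, of which 12 were at least 2-fold lower and 0 higher, with a median of -2.01, or -1.19 with 0 counts at their bound and -0.55 with thinned cells. Cells with at least 5 UMIs over 10 division genes numbered 0 of 83 in metformin, which allows a share of up to 3.61% by the limit of 3 cells, 0 of 69 in aged, which allows up to 4.35% by the same limit, and 19 of 276 in young endothelium (6.88%, interval 4.20 to 10.5). The exact Clopper-Pearson upper limits of the shares of 0 are 4.35% in metformin and 5.21% in aged cells. Young dividing cells occurred in every pool, with 6, 7 and 6 in pools A, B and C, and 4 of the 19 were candidate mixed droplets. With cells thinned to 1000 UMIs the young count was 3 of 260, so division calls are limited by depth.

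Other genes lower in aged cells were of varied function. Slc39a8, a zinc and manganese importer, had 1 UMI in aged against 360 UMIs in young cells (log2 ratio -5.81, -11.11 to -3.32). It was found in 1.45% of aged cells (interval 0.037 to 7.81), where aged T cells held it in 1.19%. In young cells it was found in 24.6%, where young T cells held it in 0.318%. With 1 aged cell holding it, the aged share could not be told from background. Its only aged UMI was in pool B, and without that pool a bound of -3.30 is left, with 3 UMIs standing for 0. Without pool C the ratio was -5.21, and with thinned cells a bound of -2.32 is left. Rbp7, a gene of the class-leading set, had 2 against 191 UMIs (-3.89, -6.95 to -2.02), or -3.20 without pool B and -1.09 as a bound with thinned cells.

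The scavenging chemokine receptor Ackr3 stood at -2.88 (-4.77 to -1.50), or -4.19 without pool C and -1.20 with thinned cells. That thinned value rests on few or no aged UMIs and may be a bound. The protease inhibitor Timp1 stood at -2.49 (-3.82 to -1.43), or -3.85 without candidate mixed droplets. The high mobility group gene Hmgb3 stood at -2.85 (-4.31 to -1.71), or -3.97 without pool C. Tmem35a, with 1 aged UMI, stood at -4.08 (-9.40 to -1.57), or -3.29 without pool B. As bounds it stood at -1.89 without pool C and -0.64 with thinned cells. Of 12 tip or sprouting endothelium genes 9 reached 20 UMIs, of which 4 were at least 2-fold lower and 1 higher (median -0.48), and Trp53i11 stood at -1.05 (-1.49 to -0.64).

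Over the whole class MHC class II genes were higher with age, and most nuclear genes of complex I and most of glycolysis were slightly lower. Of 7 MHC class II genes 5 reached 20 UMIs, of which 4 were at least 2-fold higher (median 1.25). The rise was not seen in Plvap and Fabp4 positive cells of the split described below. There, 3 of the 4 genes with 20 UMIs were below 0 (median -0.52), while in negative cells 4 of 5 were above 0 (median 1.45). The aged negative cells were only 20, with 73375 UMIs against 1288301 in young ones, so adding 1 UMI pulls low genes upwards. Of all genes in negative cells, 4638 of 7118 were above 0 (median 0.30). The ratio of Cd74 in negative cells, given below, has an interval that includes 0. Cd74, the invariant chain, had 323 CPM in aged against 119 CPM in young cells (1.44, 1.05 to 1.83), and H2-Ab1 stood at 1.48 (0.86 to 2.06). All 10 MHC class I genes were above 0 (median 0.49), as were 4880 of all 8042 genes, and 1 of the 10 was past 2-fold higher, near the 9.77% of all genes. H2-K1 stood at 0.67 (0.53 to 0.81). In the same cells the macrophage marker list summed to 32.7 CPM in aged and 33.1 CPM in young endothelium, and its markers Csf1r, Adgre1, Lyz2 and Cd68 were at 0 in aged cells. The B cell list summed to 139 CPM in aged and 67.4 CPM in young cells, with Ms4a1 at 0 in both. Of 21 nuclear complex I genes 20 were below 0, as were 3162 of all 8042 genes, but 0 of the 21 were past 2-fold (median -0.28). Of 15 glycolysis genes 14 reached 20 UMIs, of which 3 were at least 2-fold lower and 1 higher (median -0.49). Other energy genes did not share this direction: the 13 mitochondrially encoded genes had a median of 0.02, with 7 above 0 and 0 past 2-fold, and of 15 genes of AMPK and energy sensing 10 reached 20 UMIs, of which 7 were above 0 and 1 was at least 2-fold higher (median 0.34).

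The basement membrane showed no common direction. Col4a1, which encodes a chain of type IV collagen, was at 1598, 1564 and 1033 CPM in the aged pools and at 2003, 1660 and 1866 CPM in the young pools (-0.38, -0.54 to -0.21). Col4a2, its partner chain, stood at -0.54 (-0.77 to -0.32). Sparc, a matrix protein that binds type IV collagen, was at 2478, 2068 and 2842 CPM in the aged pools and at 5802, 5112 and 5529 CPM in the young pools (-1.18, -1.30 to -1.06). Of 15 members 14 reached 20 UMIs, of which 1 was at least 2-fold higher and 2 lower, with a median of -0.06.

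Plvap and Fabp4 divided the class. In a split made after their values were seen, cells with at least 2 UMIs of the 2 genes together were 42 of 83 in metformin (50.6%, interval 39.4 to 61.8), 44 of 69 in aged (63.8%, 51.3 to 75) and 29 of 276 in young endothelium (10.5%, 7.15 to 14.7). The median of these positive cells was 11 UMIs of both genes in metformin, 10.5 in aged and 4 in young cells. Just below the limit, 1 metformin, 5 aged and 15 young cells held 1 UMI, and just inside it 1 metformin, 2 aged and 7 young cells held exactly 2, so 7 of the 29 positive young cells sat at the limit. Positive cells were 38.7%, 57.1% and 58.1% of metformin pools A, B and C, 64.7%, 58.6% and 69.6% of aged pools, and 8.99%, 16.7% and 4.71% of young pools. After thinning each cell to 1000 UMIs, with cells below left out, they were 34 of 79 metformin (43.0%), 31 of 64 aged (48.4%) and 12 of 260 young cells (4.62%). Of these, 3 metformin, 7 aged and 4 young cells held exactly 2 UMIs, while 4 metformin, 9 aged and 14 young cells held 1. Among T cells a Fabp4 UMI was found in 0.319% of metformin, 0.713% of aged and 0.318% of young cells.

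**Figure D3:**
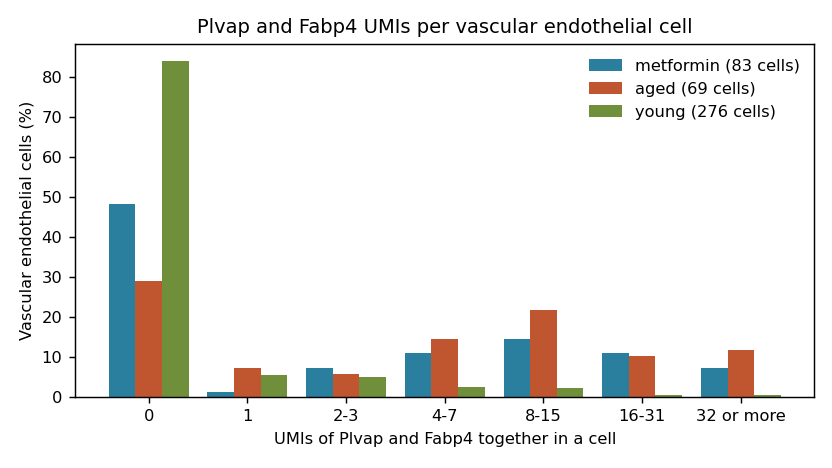
Percent of the vascular endothelial cells of each condition (y axis) by the number of UMIs of Plvap and Fabp4 together in a cell (x axis, widening bins). Cells with none are 40 of 83 in metformin, 20 of 69 in aged and 232 of 276 in young endothelium.

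Positive cells were set beside negative cells, which held 0 UMIs of both genes, and the genes named here were picked for one direction in every condition, so that shared direction is no finding. Apoe, a lipid carrier, was at 743, 902 and 695 CPM in positive metformin, aged and young cells, and at 136, 136 and 98.6 CPM in the negative cells of those conditions. The homeobox gene Meis2, the fatty acid binding protein gene Fabp5, Plac8, Rsad2 and Gpihbp1 were likewise higher in positive cells of every condition. Cldn5, the claudin of tight junctions, was at 391, 210 and 277 CPM in positive metformin, aged and young cells, and at 2376, 1322 and 1044 CPM in the negative ones. Igfbp7, the efflux transporter gene Abcb1a, the amino acid transporter gene Slc7a5, Itm2a and Vim were also lower in positive cells. The split uses Plvap and Fabp4 themselves, so these values only describe cells on its sides and are no test.

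Some differences with age were alike on both sides of the split and others were not. For aged over young, Timp3, an inhibitor of matrix proteases, stood at 1.40 (1.14 to 1.67) in positive and 1.56 (1.30 to 1.80) in negative cells, and Flt1 at 0.76 (0.44 to 1.09) and 1.15 (0.81 to 1.48). Both genes thus kept their direction on both sides of the split. Col4a1 stood at 0.17 (-0.10 to 0.43) in positive and -0.83 (-1.17 to -0.51) in negative cells, and Sparc at -0.18 (-0.37 to 0.02) and -1.45 (-1.68 to -1.22). Emcn stood at 0.95 (0.66 to 1.24) in positive and -0.05 (-0.50 to 0.36) in negative cells, and Cd74 at -0.57 (-1.02 to -0.12) and 0.33 (-1.60 to 1.76). The differences between the 2 sides were not tested.

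The second comparison, of metformin with aged endothelium, addresses how these cells differ in treated mice. Metformin cells had more Cldn5, Cxcl9 and Tgfbi and less Timp3, Flt1 and Adgrl4 than aged cells. The levels of Fabp4 and Gpihbp1 summed over the class were close in both, but Gpihbp1 was higher in metformin among Plvap and Fabp4 negative cells. The summed level of Igfbp5 was lower in metformin, but a UMI of it was found in 26.5% of metformin and 21.7% of aged cells. The metformin and aged cells together held 20 or more UMIs of 4594 genes. Of these, 126 (2.74%) were at least 2-fold higher and 202 (4.4%) at least 2-fold lower, and the median log2 ratio was -0.07. Both comparisons share the aged cells, so a chance deviation of those cells moves a gene in opposite directions in the 2 comparisons, and values of all 3 conditions are given for the genes described most fully.

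Cldn5 was at 1805, 1490 and 1379 CPM in metformin pools A, B and C, at 359, 530 and 697 CPM in the aged pools, and at 843, 824 and 1142 CPM in the young pools. The metformin pools lay above all others, and the log2 ratio of metformin over aged was 1.53 (1.25 to 1.82). It was 0.90 (0.24 to 1.58) in Plvap and Fabp4 positive cells and 0.85 (0.53 to 1.18) in negative cells. Cldn5 lies on chromosome 16 from 18776847 to 18778262. In fibroblasts, which should lack it, it was at 2.31, 0.345 and 0.251 CPM in the metformin, aged and young conditions.

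Tgfbi, a secreted adhesion protein, was at 320, 315 and 400 CPM in the metformin pools, at 0, 144 and 90.4 CPM in the aged pools and at 347, 226 and 400 CPM in the young pools (1.88, 1.22 to 2.60, and 2.77 without pool B and 3.16 with thinned cells).

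Several higher genes rested on few aged UMIs. The levels in metformin, aged and young cells were 174, 16.4 and 23.5 CPM for Cxcl9, 94.7, 12.3 and 55.9 CPM for Vwf, and 114, 16.4 and 121 CPM for Ackr3. Fxyd6 was at 123 CPM in metformin, 8.19 CPM in aged and 73.7 CPM in young cells, and Hmcn1 at 148, 32.7 and 123 CPM in the metformin, aged and young conditions. Cxcl9, a chemokine of T cell recruitment, was at 172, 182 and 169 CPM in the metformin pools, with 55 UMIs in 15 cells, against 4 UMIs in 2 aged cells (3.41, 1.97 to 5.33, and 5.04 without pool A, 2.51 without pool B and 2.02 with thinned cells). Vwf, the carrier of clotting factor VIII, stood at 2.95 (1.26 to 5.30), or 4.20 without pool A and 2.24 without pool B, and Ackr3 at 2.80 (1.31 to 4.75), or 3.96 without pool C and 0.92 with thinned cells. Fxyd6 stood at 3.91 (1.96 to 7.01) but at 2.27 without pool A, 2.73 without pool B and 0.70 with thinned cells, and Hmcn1, a matrix gene, at 2.18 (1.08 to 3.47), or 1.54 without pool A, 3.17 without pool C and 0.87 with thinned cells. The thinned values of Cxcl9, Ackr3 and Fxyd6 rest on few or no aged UMIs and may be bounds. Exosc7 stood at 2.87 (0.82 to 6.02), or 1.41 without pool B, Nrep at 2.21 (0.83 to 3.93), Msmp at 2.08 (0.81 to 3.63) and Tmem252 at 1.47 (0.77 to 2.22), or 2.46 without pool B. Of 15 chemokine and cytokine genes 8 reached 20 UMIs, of which 3 were at least 2-fold higher and 0 lower (median 0.71, or 1.42 without pool B). Cxcl10 stood at 0.61 (0.35 to 0.87), yet it was at 71.8, 306 and 1963 CPM in the aged pools and 43% of its aged UMIs were in 1 cell.

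Timp3 was at 1116, 1114 and 756 CPM in the metformin pools, at 2244, 2428 and 2622 CPM in the aged pools and at 810, 677 and 584 CPM in the young pools. The aged pools lay above all others, and the log2 ratio of metformin over aged was -1.31 (-1.51 to -1.11). It was -0.63 (-0.87 to -0.39) in positive and -2.09 (-2.48 to -1.70) in negative cells. Igfbp5 was at 435, 339 and 845 CPM in the metformin pools, against 898, 908 and 2273 CPM in the aged pools (-1.27, -1.54 to -1.0), and at 110 CPM in young cells. Its ratio was -0.19 (-0.49 to 0.10) in positive and -4.91 (-6.27 to -3.81) in negative cells, and -0.34 without candidate mixed droplets. A UMI of Igfbp5 was found in 22 of 83 metformin and 15 of 69 aged cells.

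Adgrl4, an adhesion receptor of endothelium, was at 312, 363 and 543 CPM in the metformin pools, at 1257, 719 and 865 CPM in the aged pools and at 313, 276 and 252 CPM in the young pools (-1.13, -1.45 to -0.80). The matrix gene Tinagl1 stood at -1.60 (-2.25 to -0.99), or -2.20 without pool B. Cyth3, an exchange factor for Arf proteins, stood at -2.41 (-3.65 to -1.34), the kinase gene Map3k8 at -2.58 (-4.33 to -1.15), or -1.90 without pool A, -3.54 without pool C and -4.82 without candidate mixed droplets, and Atp13a3 at -2.70 (-4.44 to -1.29), or -1.30 with thinned cells. Etl4 stood at -1.62 (-2.48 to -0.82), Fam13b at -2.18 (-3.78 to -0.83) and Cdc73 at -1.82 (-2.97 to -0.78). Fbn1, the microfibril gene, had a ratio of -2.37 (-4.41 to -0.74), but 81% of its 16 aged UMIs were in 1 cell, and without the richest cell it stood at -0.06, without pool B at -0.82 and without candidate mixed droplets at -0.57.

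**Figure D4:**
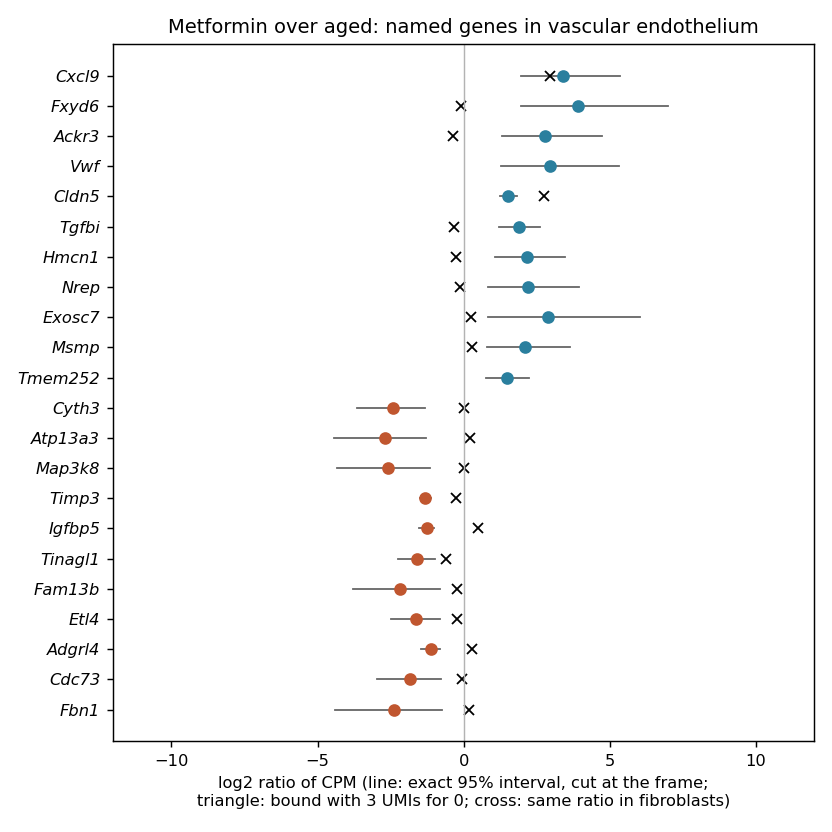
The log2 CPM ratio of metformin over aged vascular endothelium (x axis) for the 22 named genes (y axis), with exact 95% intervals and with crosses for the same ratio in fibroblasts. Cldn5 lies at 1.53 and Timp3 at -1.31, and the intervals of Cxcl9, Vwf and Fxyd6 are wide.

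VEGF receptors were lower in metformin than in aged cells for 5 of 5 members, with 0 past 2-fold (median -0.41). Below 0 were also 2524 of all 4594 genes. Flt1 was at 615, 800 and 720 CPM in the metformin pools, against 1203, 1196 and 1408 CPM in the aged pools (-0.85, -1.11 to -0.60), and still above the young range of 454 to 595 CPM. It stood at -0.23 (-0.54 to 0.08) in positive and -1.53 (-2.01 to -1.06) in negative cells. Plvap stood at -0.65 (-0.91 to -0.40), while Fabp4 (-0.13, -0.32 to 0.07) and Gpihbp1 (0.04, -0.26 to 0.35) had intervals that include 0. Over young cells, metformin cells stood at 3.16 for Plvap, 4.74 for Fabp4 and 2.52 for Gpihbp1.

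Most nuclear genes of complex I were slightly higher in metformin than in aged cells. Of 21 nuclear complex I genes 20 reached 20 UMIs, of which 17 were above 0 and 0 past 2-fold (median 0.30), with Ndufa4 at 0.56 (0.26 to 0.88). Above 0 were also 2070 of all 4594 genes. The 13 mitochondrially encoded genes, which include the mt-Nd subunits of complex I, went the other way. Their median was -0.17, with 9 below 0 and 0 past 2-fold. Complex I of the respiratory chain is a known target of metformin. The 19 dissociation stress genes had a median of -0.05 with 0 past 2-fold, and the 18 of 19 interferon response genes with 20 UMIs a median of -0.07 with 0 past 2-fold. Of 7 MHC class II genes 5 reached 20 UMIs, of which 1 was at least 2-fold higher and 0 lower (median 0.46), with H2-Aa at 1.12 (0.30 to 2.01) and H2-Ab1 at -0.75 (-1.53 to 0.02). Of 15 basement membrane genes 14 reached 20 UMIs, of which 0 were past 2-fold (median -0.25), with Col4a1 at -0.31 (-0.52 to -0.09) and Sparc at 0.59 (0.45 to 0.74). Of 16 genes of mesenchymal transition and matrix 9 reached 20 UMIs, of which 2 were at least 2-fold higher and 4 lower (median -0.88, or 0.20 without the richest cell of each gene). Smooth muscle markers summed to 227 CPM in metformin, 49.1 CPM in aged and 14.0 CPM in young cells, with 812 CPM in metformin pool B. The part of mixed droplets in that value was not tested.

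**Figure D5:**
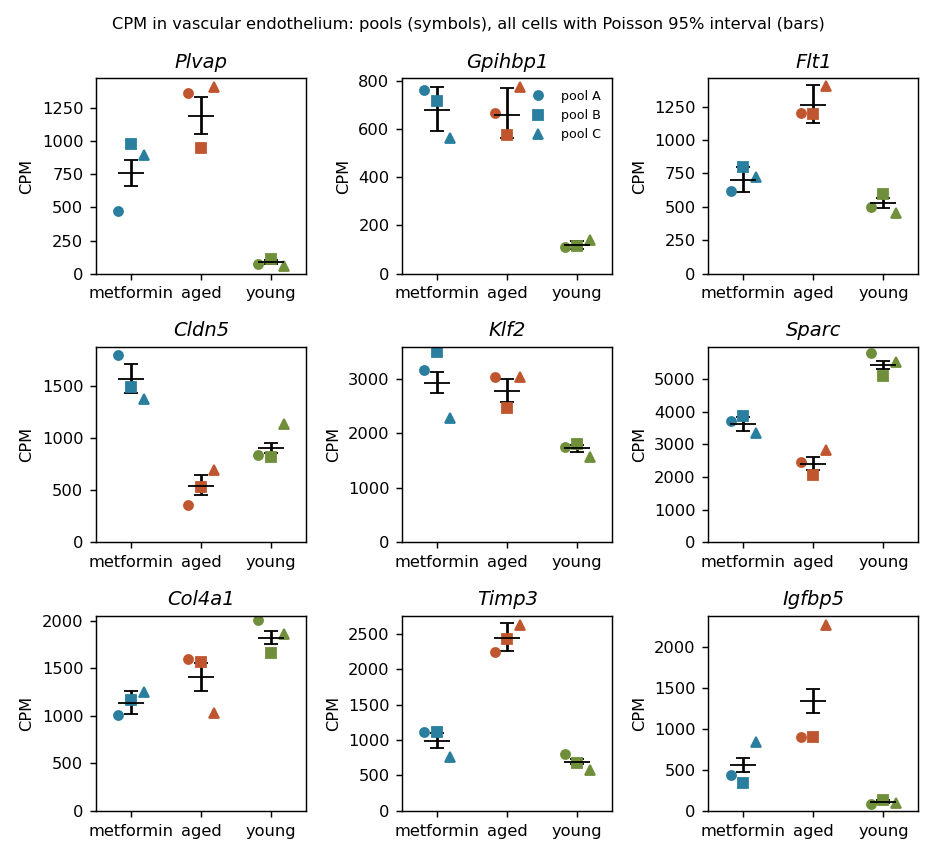
CPM of 9 genes in vascular endothelium (y axes start at 0) by condition (x axes); coloured symbols are pools A, B and C, and black bars all cells with Poisson 95% intervals for counting error. Timp3 and Flt1 are highest in the aged pools, Cldn5 in the metformin pools, and Sparc in the young pools.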

How the data were processed

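Ovarian cells of 3 conditions were profiled in 3 multiplexed pools with the 10x 3′ v3 kit. The authors deposited whole-number UMI counts for 18789 genes, and the submitters' processing notes name Cell Ranger 3.0.2 and GRCm38. A deposited table, per the file headers, names each cell's pool, tag, condition and cell type (units other than numbers) and holds a mitochondrial percent. Deposited cells hold at least 500 UMIs and none is marked as a doublet; no doublet caller was run.

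UMIs of the class were summed per condition and scaled to CPM. Shares have exact Clopper-Pearson 95% intervals, except that a share of 0 has as its limit 3 cells of the total, with the exact upper limit beside it, CPM Poisson ones, and ratios exact intervals conditional on the sum, which cover counting error only. For the counts of genes past 2-fold and list medians, 1 UMI was added to each count and at least 20 UMIs over both conditions were required. Named genes are the 12 highest and 12 lowest by the interval bound nearest 0, where it lay beyond 0.58 on the log2 scale and pools with at least 10 cells of both conditions had the same sign; mitochondrial, ribosomal and haemoglobin genes, unnamed gene models and genes over 10 times higher in another cell type were left out. Some of these genes are not reported here. In the text a count of 0 is replaced by 3 UMIs for a bound. Up to 4 members of each list with the most UMIs, and 15 genes that most set the class apart, are also named. The members and lists (30 gene groups, 16 marker lists) were chosen with earlier results of these data known. The split by Plvap and Fabp4 and the division call were chosen after values were seen; genes of that split are the 12 in each direction that differ most in the condition where they differ least. Candidate mixed droplets hold at least 3 UMIs of 52 marker genes of other cell types. Gene positions are from GENCODE vM21. Python 3.11.15, scipy 1.17.1 and pandas 2.3.3 were used. The interval code was tested on simulated counts. Alternatives changed the UMI minimum, scaling, summation, depth, added count, cells and pools used.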

Additional observations from a re-analysis of the deposited data

Results flagged for a closer look

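In each of these genes the ratio had one sign in all 3 pools of vascular endothelium and the opposite sign in all 3 pools of fibroblasts, and the fibroblast counting interval excluded 0. The shared sign in endothelium was fixed by the way genes were named, so it is no finding. The difference between the 2 cell types was not tested. For aged over young, the log2 ratio of Hapln1 was 5.24 in endothelium and -2.86 in fibroblasts, that of Igfbp5 3.61 and -1.24, and that of Rsad2 3.38 and -2.19. In the other direction Slc39a8 stood at -5.81 in endothelium and 0.75 in fibroblasts, and Ackr3 at -2.88 and 1.10. For metformin over aged, Tgfbi stood at 1.88 in endothelium and -0.32 in fibroblasts.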

How the results depend on the processing

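Leaving out each pool kept the counts past 2-fold within 1.5 times, at 623 to 867 higher and 377 to 403 lower for aged over young, and at 106 to 112 higher and 153 to 205 lower for metformin over aged. The share ratio ran from 0.556 to 0.812 for aged over young and from 0.718 to 1.16 for metformin over aged. Other settings moved the counts. For aged over young, higher and lower genes numbered 314 and 211 with at least 50 UMIs, 298 and 162 with cells thinned to 1000 UMIs, and 1790 and 56 with 5 UMIs added, and 4435 were higher with a minimum of 1 UMI. For metformin over aged, they numbered 29 and 39 with at least 50 UMIs, 1062 and 1894 with a minimum of 1 UMI, 32 and 63 with thinned cells, and 49 and 117 with 5 UMIs added, and 209 were higher as the mean over cells of CPM. Fewer genes pass a higher minimum or thinned cells; for the other settings the cause was not tested. Among list medians of at least 0.5 in size, those that changed sign were, for aged over young with thinned cells, leukocyte adhesion at -0.064 and mesenchymal transition at -0.71, and, for metformin over aged without the richest cell of each gene, stromal fibroblast markers at 0.20 and mesenchymal transition at 0.20. Counting smaller medians too, 82 of 758 alternative values had the other sign. Examples for aged over young are hypoxia response (-0.41, but 0.47 with a minimum of 1 UMI and 0.32 with 5 UMIs added), protease inhibitors (-0.38, but 0.27 with 5 UMIs added), arterial markers (0.26, but -0.39 without pool B) and chemokines (-0.01, but 0.64 with a minimum of 1 UMI). Of the 758 values, 655 stayed within 1 SD of the medians over pools, and of 381 of named genes 297 stayed within the counting interval. With thinned cells Slc39a8 stood at -2.32, Rbp7 at -1.09, Tmem35a at -0.64, Fxyd6 at 0.70, Ackr3 at 0.92 for metformin over aged, and Pclaf, Cenpf and Birc5 gave no value. The shallow aged and metformin sums limit genes of low counts. No paired analysis was possible because the pools are taken as technical repeats of 1 suspension per condition, which the labels do not state, and no test was run.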

Other observations

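Genes of blood clotting did not share a direction in aged endothelium. Thbd, thrombomodulin, which turns thrombin towards anticoagulation, was at 628, 198 and 271 CPM in the aged pools and at 62.3, 51.9 and 54.5 CPM in the young pools (log2 ratio 2.51, 2.05 to 2.97). Procr, the receptor of protein C, was lower, with 94.1 CPM in aged against 200.3 CPM in young cells (-1.09, -1.77 to -0.48). The chemokine Cxcl12 had 61.4 CPM in aged against 216 CPM in young cells (-1.81, -2.67 to -1.07).

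Cyp17a1, an enzyme of theca cells, had 1 UMI in aged and 180 UMIs in young vascular endothelium, and 56% of the young UMIs were in 1 cell. The theca and luteal marker list summed to 723 CPM in young pool B and to 136 and 114 CPM in young pools A and C.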
